A study of Rattus norvegicus with 12 samples.

Results

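The genes that move copper and zinc into, within and out of cells were followed in bone from around rat mini-implants of titanium or of an alloy that contains copper. A gene belonged here if its symbol was one of the Slc30a zinc exporters or Slc39a zinc importers, or was Mt2A, Cp, Atp7a, Atp7b, Slc31a1, Slc31a2, Atox1, Ccs, Sod1, Cox17 or Mtf1. This named 34 of the 33801 genes in the deposited table, and 1 further name, Cox17, stood on no row. The rule uses gene names and no measured value, but the set was proposed with earlier results of these data known.

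The study placed mini-implants at the upper first molar of wild-type rats and asked how cyclic loading changes gene expression in the bone beside them. The implants were titanium (cpTi in the labels) or the alloy Zr58Cu25Al14Nb3 (Nb3 alloy), and they were loaded for 2 weeks or left static. Polyadenylated RNA of the bone within a diameter of 4 mm was sequenced in 12 libraries, 3 for each of the 4 pairings of material and loading state, with all rats wild type and no treatment other than implant and load named. The labels do not say whether the 3 libraries of a group came from different animals, so the p-values cover only the spread among the libraries, which may be technical.

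Copper enters cells through the importer Slc31a1 and is handed by small chaperones to its users: Atox1 carries it to the pumps Atp7a and Atp7b, and Ccs carries it to the enzyme Sod1. Zinc is brought into the cytosol by the Slc39a (ZIP) family and removed from it by the Slc30a (ZnT) family, and some members of both also carry manganese or iron. Metallothioneins are small cysteine-rich proteins that bind both metals, and the zinc-sensing factor Mtf1 switches on their genes and that of the zinc exporter Slc30a1 by binding metal response elements.

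The libraries held 12911912 to 22308428 reads on genes. The 3 libraries of loaded Nb3 alloy were unlike the other 9, with correlations of 0.731 to 0.866 to them across the tested genes, against 0.932 to 0.969 among those 9. Mitochondrial reads made up 11.3% to 24.2% of the loaded Nb3-alloy libraries and 4.31% to 6.86% of the rest. Values are FPKM, fragments per kilobase of gene scaled by depth, and a difference is of log2(FPKM + 1), which understates the change of low genes. A gene was tested if it reached 1 FPKM in at least 3 libraries, and was called where limma gave an adjusted p (Benjamini-Hochberg, over all 15268 tested genes) under 0.05. Of the 34 metal-handling genes, 27 were tested.

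The promoters of the metallothionein genes carry the sequence through which metal is read, so 3 windows are shown (Mt2A as a member, Mt1 as its neighbour for comparison, and Slc30a1 as the other classical target), each from 250 bases before to 50 bases after the annotated start, from RefSeq on the assembly GRCr8. Capitals mark matches to the core of the metal response element, searched as TGCACNC and TGCGCNC on both strands, so that a match on the other strand reads GNGTGCA or GNGCGCA. The windows are Mt2A at chr19:10838659-10838958 on the minus strand, its neighbour Mt1 at chr19:10832926-10833225 on the minus strand, and Slc30a1 at chr13:106021769-106022068 on the plus strand. By chromosome, strand and place beside Mt2A, this Mt1 corresponds to AC128848.1 of the deposited table, described there as metallothionein 1. It is not the chromosome 17 row that carries the symbol Mt1 in that table.
Mt2A: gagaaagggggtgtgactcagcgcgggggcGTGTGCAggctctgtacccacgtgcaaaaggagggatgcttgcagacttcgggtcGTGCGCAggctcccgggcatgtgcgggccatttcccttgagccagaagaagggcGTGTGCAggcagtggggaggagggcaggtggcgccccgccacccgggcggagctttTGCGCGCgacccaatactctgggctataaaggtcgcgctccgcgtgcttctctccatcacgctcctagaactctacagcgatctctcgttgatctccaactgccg
Mt1: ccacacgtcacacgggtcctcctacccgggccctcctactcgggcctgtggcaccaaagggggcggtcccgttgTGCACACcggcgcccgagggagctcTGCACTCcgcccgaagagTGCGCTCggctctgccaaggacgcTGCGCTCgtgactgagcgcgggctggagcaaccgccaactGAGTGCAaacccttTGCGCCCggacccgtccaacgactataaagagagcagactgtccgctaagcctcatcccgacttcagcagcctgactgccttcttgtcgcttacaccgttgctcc
Slc30a1: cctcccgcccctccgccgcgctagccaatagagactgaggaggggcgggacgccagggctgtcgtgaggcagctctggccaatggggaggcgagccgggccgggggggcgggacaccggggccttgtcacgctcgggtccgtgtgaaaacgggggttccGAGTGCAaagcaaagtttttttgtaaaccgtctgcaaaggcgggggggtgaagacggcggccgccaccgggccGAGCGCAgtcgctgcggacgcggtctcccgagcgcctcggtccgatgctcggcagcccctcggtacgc

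The Mt2A window held 4 matches, with first bases at -220, -165 and -111 on the other strand and at -55 on the gene's strand, counted from the start. In the Mt1 window there were 6, at -176, -151, -133, -109 and -55 on the gene's strand and at -69 on the other. Slc30a1 had 2, at -91 and -18, both on the other strand. No match overlapped another. Among all 33469 windows of 300 bases in the table, 24.2% held at least 1 match, 6.36% at least 2, 0.439% at least 4 and 0.0388% at least 6. Of the 29 metal-handling genes with a window, 13 (44.8%) had at least 1 match in any of their windows and 16 had none. This share is per gene and the 24.2% is per window, so the 2 are unlike measures. The 5 genes without a window were Slc30a7, Slc30a8, Slc30a10, Slc39a4 and Slc39a14. Slc39a7 had 4, Slc30a4 had 3, Slc30a2 had 0 in 1 of its 2 windows and 3 in the other, and Mtf1, Slc30a5, Slc39a11 and Slc39a13 had 2 each. A match is only a description of these letters, and no match says nothing about the factor.

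**Figure D1:**
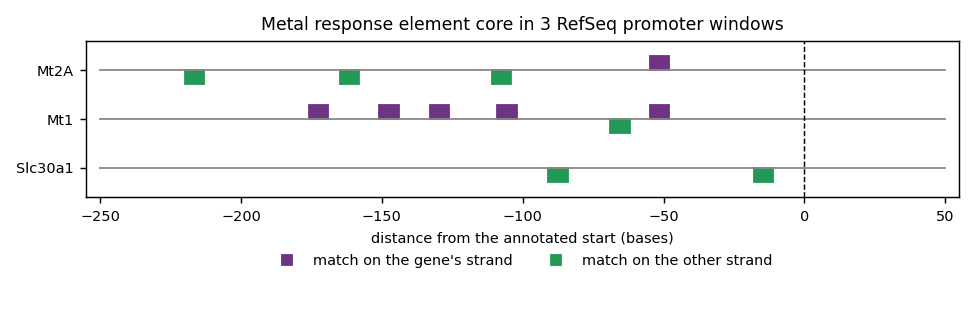
Matches to the metal response element core in the promoter windows of Mt2A, Mt1 and Slc30a1, by distance from the annotated start in bases (dashed line), with matches on the gene's strand above each line and those on the other strand below it. Mt2A has 4 matches, Mt1 (the chromosome 19 gene beside Mt2A) has 6 and Slc30a1 has 2.

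The transcript of the metallothionein gene Mt2A (ENSRNOG00000043098, chromosome 19, 10832002 to 10832784, minus strand, in the coordinates of the deposited table) was high in the loaded Nb3-alloy libraries and overlapped among the other 3 groups. It stood at 86.8, 58.2 and 132 FPKM in loaded Nb3 alloy, at 22.9, 21.9 and 38.4 in non-loaded Nb3 alloy, at 26.1, 27.4 and 35.5 in loaded cpTi and at 30.9, 28.7 and 36.5 in non-loaded cpTi. Each loaded Nb3-alloy library lay above all 9 others. The mean was 3.32 times that of non-loaded Nb3 alloy (92.2 ± 36.9 against 27.7 ± 9.29 FPKM, SD, n = 3). The loading difference beside the alloy was 1.67 (SE 0.285, limma, adjusted p = 0.000796), against -0.11 beside cpTi, where it was not called. The difference between these differences was itself called, at 1.78 (SE 0.404, limma, adjusted p = 0.0117). Under loading, Mt2A was higher beside the alloy than beside cpTi by 1.54 (limma, adjusted p = 0.00222).

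The other metallothionein rows did not all move with Mt2A. The row described as metallothionein 1 on chromosome 19 (AC128848.1, ENSRNOG00000025764), looked at after its values were seen, stood at 83.0, 51.8 and 133 FPKM in loaded Nb3 alloy and at 69.5, 81.8 and 121 in non-loaded Nb3 alloy. Loaded cpTi had 78.3, 67.7 and 86.0 and non-loaded cpTi 81.3, 84.7 and 64.4, so the 4 groups overlapped. Its loading difference beside the alloy was -0.09 (95% interval -0.76 to 0.58, limma, adjusted p = 0.835).

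The ratio of Mt2A to this neighbour, which no scaling of the libraries can change, was highest in loaded Nb3 alloy. It was 1.05, 1.12 and 0.991 in loaded Nb3 alloy, 0.329, 0.267 and 0.317 in non-loaded Nb3 alloy, 0.334, 0.405 and 0.412 in loaded cpTi, and 0.380, 0.339 and 0.567 in non-loaded cpTi. The log2 ratio was 1.79 higher with loading beside the alloy (exact two-sided permutation p = 0.1, the smallest that 3 against 3 allows) and changed by -0.13 beside cpTi (exact permutation p = 0.8). Under loading it was 1.46 higher beside the alloy than beside cpTi, and without loading the difference was -0.46, the groups again not overlapping (exact two-sided permutation p = 0.1 in both). The ratio thus separated non-loaded Nb3 alloy from non-loaded cpTi as well, in the opposite direction. The 2 genes are close copies that could share reads. The ratio describes an unequal change in these libraries and does not tell which of them stayed level. The neighbour was chosen after its values were seen, so the ratio and its p-values are no support separate from the Mt2A difference. The result depends on that choice: Mt3, of the same cluster, differed by 1.87 with loading beside the alloy, and a ratio to Mt3 was not tested.

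Mt3, a metallothionein best known from the brain, was also higher with loading beside the alloy. Its values were 76.8, 60.5 and 154 FPKM in loaded Nb3 alloy and 18.5, 19.4 and 37.4 in non-loaded Nb3 alloy, a difference of 1.87 (SE 0.445, limma, adjusted p = 0.00561). Unlike Mt2A, Mt3 also leaned higher with loading beside cpTi, at 41.9, 98.2 and 76.8 loaded and 21.5, 51.8 and 28.0 non-loaded, with the groups overlapping. That difference was 1.09 (95% interval 0.11 to 2.07) and was not called (limma, adjusted p = 0.689). Under loading, Mt3 differed between the materials by only 0.39 (limma, adjusted p = 0.540). Its interaction of loading and material was 0.78 (SE 0.630, limma, adjusted p = 0.422). The row that carries the symbol Mt1 lies on chromosome 17, away from the cluster, and is not the gene of the Mt1 promoter window. It had 9.31 to 22.3 FPKM in the 12 libraries.

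**Figure D2:**
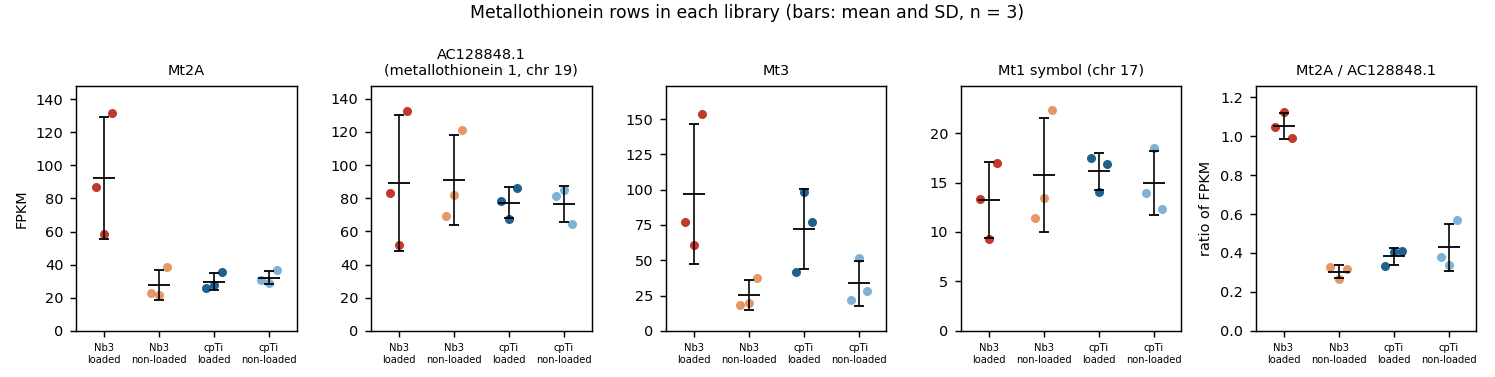
FPKM of 4 metallothionein rows and the ratio of Mt2A to AC128848.1 in each library (1 point per library, bars the mean and SD of 3). The 3 loaded Nb3-alloy libraries lie above all others for Mt2A and for the ratio, from 0.991 to 1.12 against 0.267 to 0.567,, while the 4 groups overlap for AC128848.1 and for the Mt1 row on chromosome 17.

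Mtf1, the zinc-sensing regulator, was slightly lower in the libraries where Mt2A was high. Its levels were 2.55, 4.15 and 3.28 FPKM in loaded Nb3 alloy, 5.15, 4.33 and 4.57 in non-loaded Nb3 alloy, 4.67, 4.76 and 4.77 in loaded cpTi and 4.96, 4.53 and 5.38 in non-loaded cpTi. The loading difference beside the alloy was -0.41 (SE 0.147, limma, adjusted p = 0.0409) and lost its call in 12 of 22 alternatives, among them without loaded Nb3-alloy replicate 1 or 3, any 1 non-loaded Nb3-alloy or loaded cpTi library, or non-loaded cpTi replicate 1, with adjusted p of 0.0548 to 0.1497 there. Slc30a1, the exporter that Mtf1 is known to switch on, had 19.2, 22.2 and 13.8 FPKM in loaded Nb3 alloy and 15.7, 15.01 and 21.1 in non-loaded Nb3 alloy. These overlapped, and the difference was 0.08 (95% interval -0.30 to 0.45, limma, adjusted p = 0.737).

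Across all 27 tested genes, loading beside the Nb3 alloy changed 13 (48.1%), against 45.8% of all tested genes, so the number called was near that of any gene. Higher were 8 (29.6%, against 20.7% of all genes) and lower were 5 (18.5%, against 25.2%). The median difference of the 27 genes was 0.14, against -0.02 over all tested genes. The number of calls is therefore no result about metal handling, and what follows is which genes moved and how far.

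**Figure D3:**
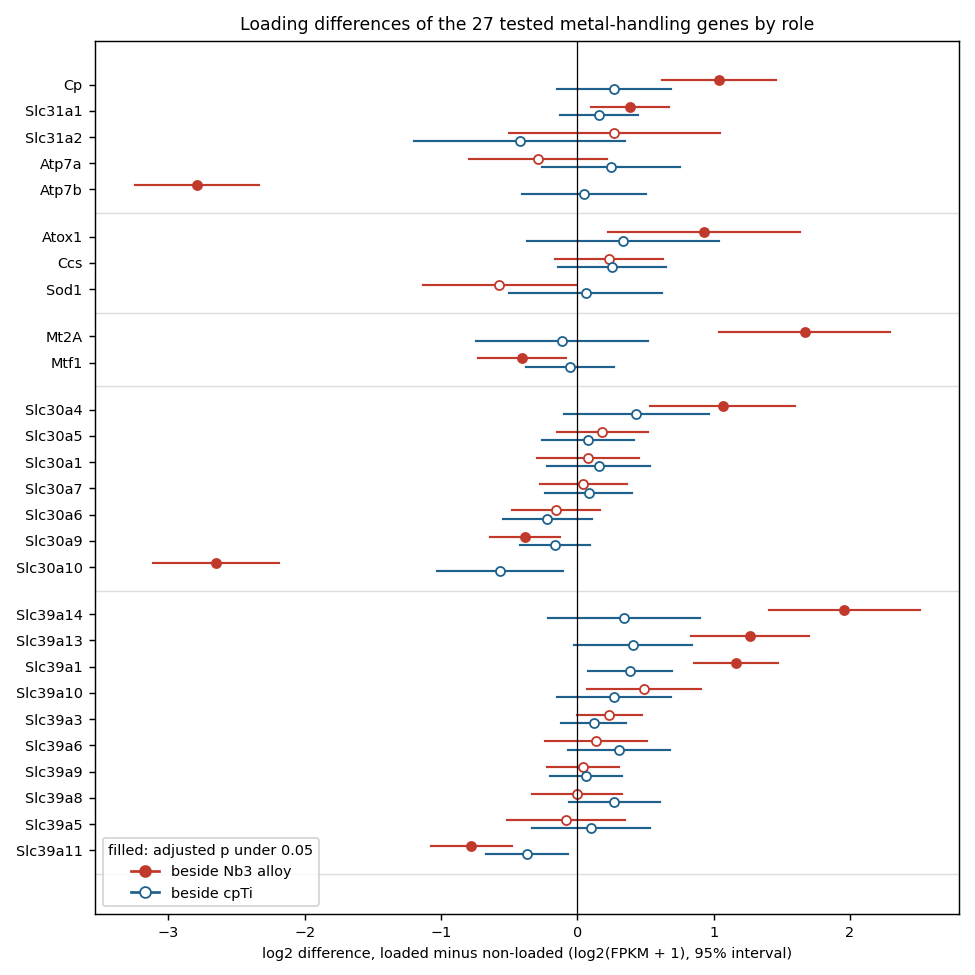
Loaded minus non-loaded difference of log2(FPKM + 1) for the 27 tested genes, grouped by role, beside Nb3 alloy (red) and beside cpTi (blue), with 95% intervals and filled points where the adjusted p was under 0.05. Beside the alloy 13 points are filled, from -2.79 for Atp7b to 1.96 for Slc39a14, and beside cpTi none is.

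The sharpest change among the copper genes was in Atp7b, a pump that moves copper into the secretory pathway and out of the cell. It read 0.275, 0.0943 and 0.197 FPKM in loaded Nb3 alloy, from 32, 12 and 24 reads, and 7.90, 6.28 and 7.54 FPKM in non-loaded Nb3 alloy, from 859, 756 and 746 reads. Loaded cpTi had 9.43, 5.24 and 6.45 FPKM and non-loaded cpTi 7.88, 7.23 and 4.997. The loaded Nb3-alloy libraries lay far below the other 9, which overlapped among themselves, and the mean was 38.4 times higher without loading. Atp7b fell by 2.79 (SE 0.208, limma, adjusted p = 2.59e-06), and the interaction was -2.84 (SE 0.294, limma, adjusted p = 0.000124).

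Its relative Atp7a, the copper pump of most tissues outside the liver, did not follow. It had 2.65, 4.31 and 4.78 FPKM in loaded Nb3 alloy, 5.32, 3.46 and 6.24 in non-loaded Nb3 alloy, 5.38, 5.68 and 5.20 in loaded cpTi and 4.95, 3.22 and 5.33 in non-loaded cpTi. Loaded and non-loaded Nb3 alloy overlapped, and the loading difference beside the alloy was -0.29 (95% interval -0.80 to 0.22, limma, adjusted p = 0.330). Each loaded Nb3-alloy library was below each loaded cpTi library, with a difference of -0.41 that was not called. Per length and by group means, Atp7a was the more abundant of the pair in loaded Nb3 alloy, at of 3.91 against 0.189 FPKM, and the less abundant in the other 3 groups, at 4.50 to 5.42 against 6.70 to 7.24.

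Ceruloplasmin (Cp), a ferroxidase that carries copper in plasma, was higher beside the loaded alloy. Its levels were 83.8, 89.5 and 83.2 FPKM there, 46.8, 33.9 and 43.3 in non-loaded Nb3 alloy, 49.0, 56.6 and 52.1 in loaded cpTi and 35.8, 37.8 and 60.0 in non-loaded cpTi. Beside the loaded alloy the values were close together and above all others. The loading difference was 1.04 (SE 0.190, limma, adjusted p = 0.00114), while the interaction of 0.77 missed the threshold (SE 0.268, limma, adjusted p = 0.0660). Part of the Cp position, 13502 bases, is shared with Hps3 on the opposite strand, which averaged 7.78 FPKM.

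Slc31a1, the main copper importer, moved little. It had 12.8, 13.7 and 14.6 FPKM in loaded Nb3 alloy, 9.34, 9.32 and 12.3 in non-loaded Nb3 alloy, 11.9, 11.3 and 11.7 in loaded cpTi and 9.45, 9.65 and 11.98 in non-loaded cpTi. The difference of 0.39 with loading beside the alloy (SE 0.131, limma, adjusted p = 0.0317) lost its call in 6 of 22 alternatives, including without loaded Nb3-alloy replicate 2 or 3 (adjusted p = 0.0596 and 0.0879) and without non-loaded Nb3-alloy replicate 1 or 2 (adjusted p = 0.0962 and 0.101). Slc31a2, a related protein, had 9.09, 15.6 and 8.84 FPKM in loaded Nb3 alloy, 8.04, 6.90 and 12.1 in non-loaded Nb3 alloy, 16.2, 6.45 and 6.25 in loaded cpTi and 8.92, 12.8 and 15.3 in non-loaded cpTi. Its groups overlapped in all of the comparisons, and the loading difference beside the alloy was 0.27 (95% interval -0.50 to 1.05).

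Of the copper chaperones, Atox1 was higher beside the loaded alloy by the test, but its groups overlapped. It had 128, 121 and 62.4 FPKM in loaded Nb3 alloy, 34.2, 67.1 and 59.3 in non-loaded Nb3 alloy, 49.9, 67.2 and 59.1 in loaded cpTi and 38.1, 40.8 and 62.8 in non-loaded cpTi. Loaded Nb3-alloy replicate 3 lay below non-loaded replicate 2. The difference was 0.93 (SE 0.320, limma, adjusted p = 0.0341), and 7 of 22 alternatives ended the call, among them leaving out loaded Nb3-alloy replicate 1 or 2 (adjusted p = 0.120 and 0.0964) or non-loaded Nb3-alloy replicate 1 or 3 (adjusted p = 0.126 and 0.0519).

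Ccs, which loads copper into Sod1, had 29.6, 31.3 and 29.8 FPKM in loaded Nb3 alloy and 18.7, 31.3 and 28.4 in non-loaded Nb3 alloy, which overlapped. Loaded cpTi had 28.3, 27.4 and 25.1 and non-loaded cpTi 23.5, 26.0 and 18.3. Each loaded Nb3-alloy library was above each loaded cpTi library, with a difference of 0.16 that was not called (limma, adjusted p = 0.523). Sod1, the cytosolic copper and zinc superoxide dismutase, had 46.9, 56.8 and 48.6 FPKM in loaded Nb3 alloy and 47.4, 104 and 88.4 in non-loaded Nb3 alloy, where replicate 1 stood apart from the other two. Beside cpTi it had 93.1, 59.8 and 75.7 loaded and 74.0, 70.5 and 71.0 non-loaded. The loaded Nb3-alloy libraries overlapped the non-loaded ones and lay below all 6 cpTi libraries. Its difference of -0.57 with loading beside the alloy was not called (95% interval -1.14 to -0.01, limma, adjusted p = 0.0881). Without non-loaded Nb3-alloy replicate 1 it was -0.91 (limma, adjusted p = 0.00293), and with libraries scaled by total reads -0.75 (limma, adjusted p = 0.0266).

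Among the 7 tested zinc exporters, 1 was higher, 2 were lower and 4 were not called with loading beside the alloy. Of all tested genes, 20.7% were higher and 25.2% lower, so counts this small are no result about the exporters. Slc30a10, which mainly exports manganese, was all but absent from the loaded Nb3-alloy libraries. It read 0, 0.247 and 0 FPKM there, from 0, 10 and 0 reads, where the limit that a count of 0 allows, 3 reads, would have been 0.0811 and 0.0772 FPKM (counting error only). It had 5.06, 4.99 and 7.56 FPKM in non-loaded Nb3 alloy (175, 191 and 238 reads), 3.44, 4.23 and 6.34 in loaded cpTi and 6.94, 7.86 and 6.85 in non-loaded cpTi. No library outside loaded Nb3 alloy came near these values. Slc30a10 fell by 2.65 (SE 0.210, limma, adjusted p = 4.18e-06) with an interaction of -2.09 (SE 0.296, limma, adjusted p = 0.000954). It was also lower in every loaded than in every non-loaded cpTi library, with a difference of -0.57 that was not called (limma, adjusted p = 0.666).

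Slc30a4, which loads zinc into vesicles, was higher with loading beside the alloy. It had 20.9, 18.1 and 31.3 FPKM in loaded Nb3 alloy, 12.5, 11.4 and 7.76 in non-loaded Nb3 alloy, 12.9, 17.8 and 14.9 in loaded cpTi and 9.09, 9.74 and 14.6 in non-loaded cpTi. The difference was 1.07 (SE 0.242, limma, adjusted p = 0.00421). Slc30a9 was lower, at 28.0, 21.7 and 24.9 FPKM against 33.6, 31.9 and 32.2 in non-loaded Nb3 alloy, with 33.4, 27.2 and 30.4 in loaded cpTi and 33.4, 35.7 and 32.8 in non-loaded cpTi. Its difference of -0.38 (SE 0.117, limma, adjusted p = 0.0198) lost its call without loaded Nb3-alloy replicate 2 (adjusted p = 0.0686) and with the compared groups alone (adjusted p = 0.0723). Slc30a5, Slc30a6 and Slc30a7, which serve the secretory pathway, differed by 0.18, -0.16 and 0.04 and were not called.

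The zinc importers included the largest rise. With loading beside the alloy 3 of the 10 tested were higher, 1 was lower and 6 were not called. The shares of all tested genes were 20.7% higher and 25.2% lower, so these counts are no result about the importers. Slc39a14 (ZIP14), which carries zinc, iron and manganese, had 35.1, 41.0 and 20.7 FPKM in loaded Nb3 alloy, 9.34, 6.09 and 6.63 in non-loaded Nb3 alloy, 7.57, 13.0 and 9.89 in loaded cpTi and 7.05, 8.37 and 7.46 in non-loaded cpTi. All 3 loaded Nb3-alloy values lay above the other 9, and the mean was 4.39 times that of non-loaded Nb3 alloy. The difference was 1.96 (SE 0.252, limma, adjusted p = 0.00013), and the interaction was 1.62 (SE 0.357, limma, adjusted p = 0.0103).

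Slc39a1 (ZIP1), a zinc importer of the cell surface, was the most abundant of the family, at 98.1, 92.5 and 72.6 FPKM in loaded Nb3 alloy. It had 40.1, 36.0 and 39.0 in non-loaded Nb3 alloy, 43.7, 52.8 and 51.4 in loaded cpTi and 33.6, 37.9 and 40.8 in non-loaded cpTi. Both loaded groups lay above their non-loaded counterparts. The difference was 1.16 beside the alloy (SE 0.140, limma, adjusted p = 8.43e-05) and 0.39 beside cpTi, where it was not called (limma, adjusted p = 0.666). The interaction was 0.78 (SE 0.198, limma, adjusted p = 0.0196), and it lost its call without loaded cpTi replicate 1 (adjusted p = 0.0550) and with libraries scaled by total reads (adjusted p = 0.0698).

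Slc39a13 (ZIP13), known for its role in connective tissue and in an inherited disorder of skin and skeleton, had 19.3, 15.8 and 13.6 FPKM in loaded Nb3 alloy and 7.24, 5.92 and 5.25 in non-loaded Nb3 alloy. Loaded cpTi had 7.78, 10.8 and 8.93 and non-loaded cpTi 5.32, 8.93 and 6.06, below every loaded Nb3-alloy library. The difference was 1.27 (SE 0.197, limma, adjusted p = 0.000417). The interaction of 0.86 passed the threshold narrowly (limma, adjusted p = 0.0499) and lost its call in 16 of 21 alternatives, among them leaving out loaded or non-loaded Nb3-alloy replicate 2, loaded Nb3-alloy replicate 1, non-loaded Nb3-alloy replicate 3, loaded cpTi replicate 1 or 3, or non-loaded cpTi replicate 2 or 3, with adjusted p of 0.0675 to 0.120 there. The gene lies over 5794 bases of Psmc3 on the opposite strand, which averaged 69.6 FPKM, and the strand setting of the counting is not given in the sources used here.

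Slc39a11 was the importer that fell. It had 5.28, 4.35 and 5.61 FPKM in loaded Nb3 alloy, 8.94, 8.69 and 10.6 in non-loaded Nb3 alloy, 6.30, 6.39 and 7.04 in loaded cpTi and 10.3, 7.94 and 8.22 in non-loaded cpTi. Loaded libraries were below non-loaded ones beside both materials. The difference was -0.78 beside the alloy (SE 0.136, limma, adjusted p = 0.000888) and -0.37 beside cpTi (limma, adjusted p = 0.666, not called). The manganese and zinc importer Slc39a8, of the same branch as Slc39a14, did not share its rise: 28.0, 19.3 and 22.8 FPKM in loaded Nb3 alloy overlapped 24.7, 22.7 and 22.1 in non-loaded Nb3 alloy. Its difference was 0.00 (95% interval -0.34 to 0.33). Slc39a10, with a difference of 0.49, just missed the threshold (limma, adjusted p = 0.0557).

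**Figure D4:**
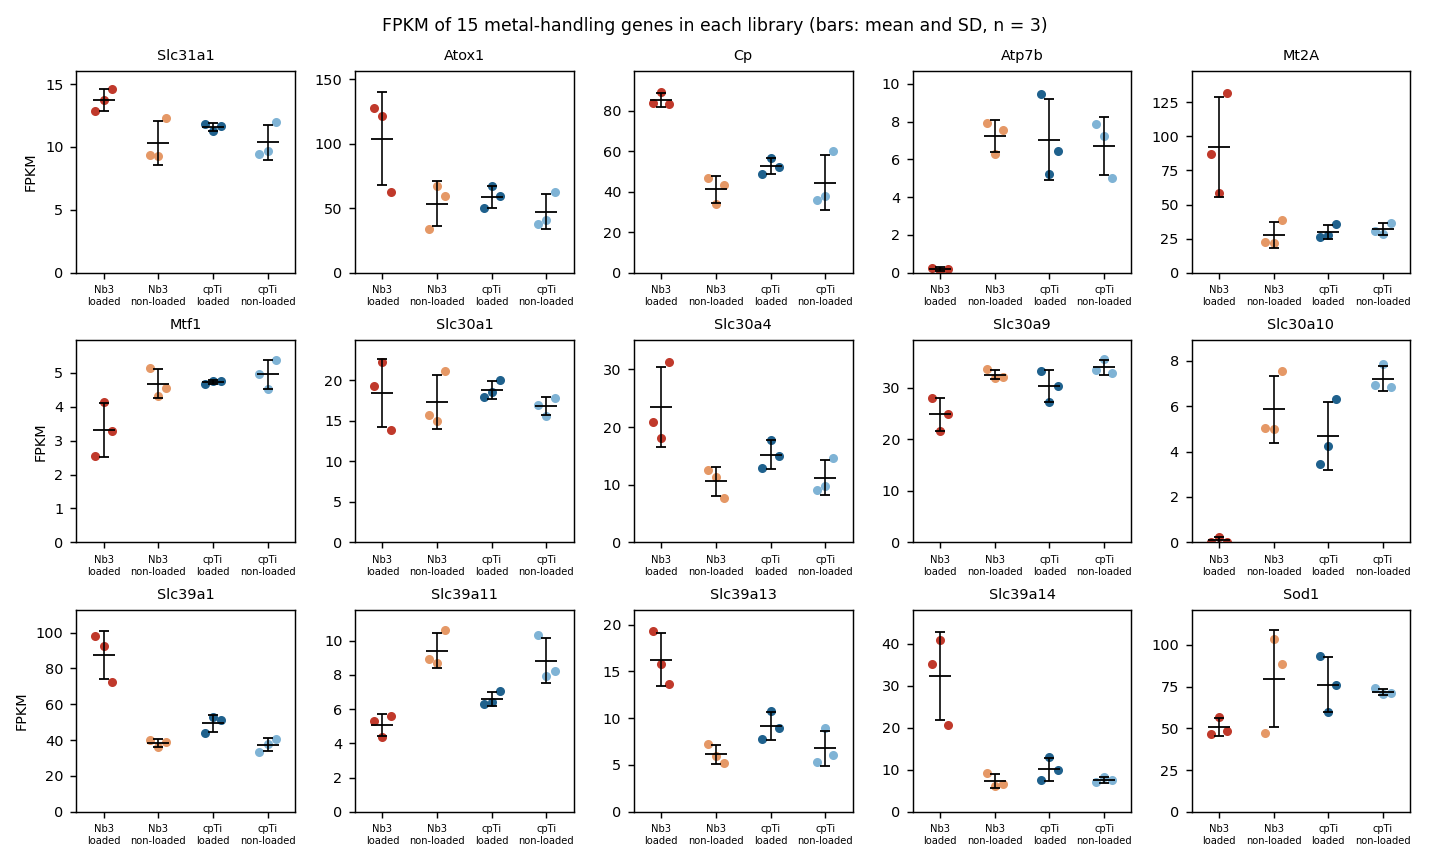
FPKM of 15 metal-handling genes in each library (1 point per library, bars the mean and SD of 3, each panel on its own scale from 0). Atp7b and Slc30a10 are near 0 in the 3 loaded Nb3-alloy libraries, Mt2A, Slc39a14, Slc39a1, Slc39a13 and Cp are above all others there, and Sod1 and Atox1 overlap between loaded and non-loaded Nb3 alloy.

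Set against loaded cpTi, the same 3 loaded Nb3-alloy libraries gave 9 of 27 genes called (33.3%), against 33.6% of all tested genes. Higher were 6 (22.2%, against 14.7% of all): Slc39a14 by 1.55, Mt2A by 1.54, Slc39a1 by 0.81, Slc39a13 by 0.76, Cp by 0.69 and Slc39a3 by 0.31. Lower were 3 (11.1%, against 18.9%): Atp7b by a difference of -2.73, Slc30a10 of -2.37 and Mtf1 of -0.42. The comparison shares its loaded Nb3-alloy libraries with the loading comparison, so the lists are not independent of each other. Slc39a3, a zinc importer, had 7.89, 7.74 and 7.97 FPKM in loaded Nb3 alloy, 7.33, 6.31 and 6.02 in non-loaded Nb3 alloy, 6.27, 6.38 and 5.75 in loaded cpTi and 5.52, 5.87 and 5.29 in non-loaded cpTi. Its call (limma, adjusted p = 0.0442) was lost in 18 of 22 alternatives, including without any 1 library other than non-loaded Nb3-alloy replicate 1, at adjusted p of 0.0510 to 0.148. That of Mtf1 (limma, adjusted p = 0.0460) was lost in 14, including without any 1 library other than loaded Nb3-alloy replicate 2, at adjusted p of 0.0507 to 0.157. Without loaded cpTi replicate 1, 5 genes were called, since Cp (adjusted p = 0.0608) and Slc39a13 (adjusted p = 0.0567) were no longer past the threshold either. The call of Cp was also lost without loaded cpTi replicate 3 (adjusted p = 0.0508).

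The test of whether the loading difference itself differed between the 2 materials called 6 of 27 genes (22.2%), against 20.2% of all tested genes. Positive were 4 (14.8%, against 8.42% of all), Mt2A, Slc39a14, Slc39a13 and Slc39a1, and negative were 2 (7.41%, against 11.8%), Atp7b and Slc30a10. Beside cpTi itself, limma called 0 of 27 genes with loading, against 0.00655% of all tested genes, and limma-voom on reads recovered from the FPKM also called 0 of the 27. At an unadjusted p under 0.05 there were 3 (Slc30a10, Slc39a1 and Slc39a11), or 11.1% against 6.96% of all genes. In 6 genes (22.2%, against 16.4% of all) the 3 loaded cpTi libraries did not overlap the 3 non-loaded ones. Slc30a1, Slc39a1 and Slc39a8 were higher in every loaded library, and Slc30a10, Slc30a6 and Slc39a11 were lower in every one.

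Without loading, no metal-handling gene was called between the materials. Non-loaded Nb3 alloy against non-loaded cpTi gave 0 of 27 calls by limma, against 0.0% of all tested genes, and 0 by limma-voom, with 1 gene (Slc39a8) at an unadjusted p under 0.05, or 3.7% against 3.08% of all genes. Its difference was 0.43 (95% interval 0.10 to 0.76). The groups did not overlap in 2 genes (7.41%, against 7.29% of all), Slc39a3 and Slc39a8, both higher beside the alloy. For Mt2A the static difference was -0.24, and the 27 differences ran from -0.42 to 0.43. A missed threshold does not show that the materials act alike.

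The filter on low values left 7 genes untested. Slc30a2, Slc30a3, Slc39a2, Slc39a4 and Slc39a12 had at most 1.07 FPKM in any library. Slc30a8, the zinc transporter of insulin granules, and Slc39a7 were listed at 0 in all 12 libraries, where 3 reads would have been 0.117 to 0.158 FPKM for Slc30a8 and 0.0528 to 0.0710 for Slc39a7. Slc39a7 is a zinc channel of the endoplasmic reticulum that most cells use. Of its position, 4512 bases are also those of Hsd17b8 on the same strand, itself near 0 (mean 0.0131 FPKM). Rxrb on the opposite strand shares 4526 bases with it and averaged 6.655 FPKM, and the strand setting of the counting is not given. The true level of Slc39a7 is therefore not known from these values.

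A further list, chosen with earlier results of these data known, held copper chaperones, copper enzymes, metalloreductases and other copper-related genes, Mt3 among them. Of its 32 genes, Sco2, Cmc1, Commd1, Slc25a3 and Aoc3 did not stand on exactly 1 row and were left out. Among the other 27, 21 were tested. With loading beside the alloy 11 were higher and 1 lower, against 20.7% and 25.2% of all tested genes, with a median difference of 0.83. The lysyl oxidases Loxl1 and Loxl2, copper enzymes that cross-link collagen and elastin, rose from 17.8 ± 1.72 to 71.7 ± 9.86 FPKM and from 6.45 ± 1.84 to 23.1 ± 2.12 FPKM (SD, n = 3), with differences of 1.94 and 1.72. Steap2 and Steap1, of the family of membrane metalloreductases that reduce copper and iron, rose from 3.33 ± 0.983 to 11.04 ± 1.96 FPKM and from 0.275 ± 0.0388 to 5.49 ± 1.68 FPKM, with differences of 1.49 and 2.31. Memo1 was lower, at 6.14 ± 0.319 against 19.3 ± 2.31 FPKM, a difference of -1.50. Beside cpTi 0 of the 21 were called, with a median difference of 0.115. At an unadjusted p under 0.05 (limma), Lox, Mt3, Loxl4, Loxl2, Heph and Steap4 were higher with loading there, by 0.40 to 1.27, and none was lower. Of all tested genes, 6.96% reached that level in either direction. Under loading 7 of the list were higher and 3 lower beside the alloy than beside cpTi, against 14.7% and 18.9% of all tested genes.

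Genes of protein lipoylation, through which excess copper is known to harm cells, were called in both directions. Of 11 tested, 2 were higher with loading beside the alloy (20.7% of all tested genes were), Gcsh by 0.92 (limma, adjusted p = 0.00514) and Lipt2 by 0.55 (limma, adjusted p = 0.0461), and 1 was lower (25.2% of all), Dlst by a difference of -0.63 (limma, adjusted p = 0.00351). Fdx1, which reduces copper in that process, had a difference of 0.47 that was not called (limma, adjusted p = 0.0639). Under loading, 3 were higher beside the alloy than beside cpTi (14.7% of all were), including Fdx1 by 0.70 (limma, adjusted p = 0.0168), and 1 was lower (18.9% of all). Among 6 other metal transporters tested, 1 was lower with loading beside the alloy (25.2% of all tested genes were), Tmem163 by a difference of -0.79 (limma, adjusted p = 0.0209), and none was higher. Tmem163 lay near the filter of 1 FPKM, at 0.23 ± 0.12 FPKM in loaded and 1.14 ± 0.27 in non-loaded Nb3 alloy (SD, n = 3).

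Markers of other cells moved in the same libraries, and their part in the values above was not tested. In bulk tissue, fewer cells of a type and less RNA per cell cannot be told apart. The summed level of 11 red cell genes was 5.84 to 28.6 FPKM in loaded Nb3 alloy and 1490 to 3233 in the other 9 libraries, and all 11 were lower with loading beside the alloy. For 12 neutrophil genes the sums were 367 to 901 and 6890 to 22720 FPKM, with 10 of 11 tested lower, and for 10 cell cycle genes 25.01 to 26.8 and 283 to 616 FPKM, with 10 of 10 lower. In the other direction, 9 fibroblast and ligament genes summed to 2596 to 4108 FPKM in loaded Nb3 alloy and 272 to 1123 in the others, with 8 of 9 higher, and 6 endothelial genes to 206 to 381 and 68.0 to 109 FPKM, with 5 of 6 higher. Macrophage sums were 1598 to 5880 and 479 to 954 FPKM, with 3 of 10 genes higher and 1 lower. Beside these counts, 20.7% of all tested genes were higher and 25.2% lower with loading beside the alloy.

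The labelled tissue was checked with 12 bone genes, of which none was at 0 in all 3 libraries of a group. They summed to 12300 to 27920 FPKM in loaded and 4977 to 11710 in non-loaded Nb3 alloy, and to 14440 to 17120 in loaded and 5122 to 7828 in non-loaded cpTi, so every loaded library lay above every non-loaded one. With loading, 3 of the 12 were called higher beside the alloy (median difference 0.76) and 0 beside cpTi (median 1.14). Of all tested genes, 20.7% were called higher beside the alloy and 0.00655% in either direction beside cpTi. Muscle genes varied widely within loaded Nb3 alloy, from 6.07 to 707 FPKM, and were 9.41 to 34.4 FPKM in the others. Liver genes, which matter because Cp and Atp7b are abundant in liver, summed to at most 4.47 FPKM, and none of the 4 was tested.

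**Figure D5:**
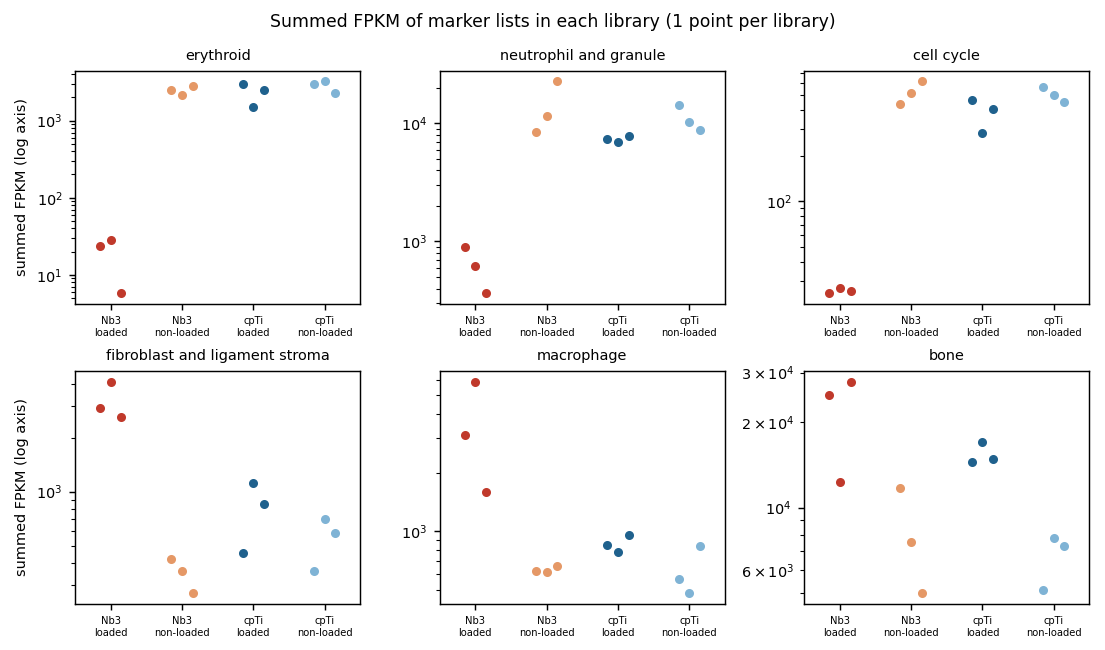
Summed FPKM of 6 lists of marker genes in each library, on log axes, 1 point per library. The 3 loaded Nb3-alloy libraries are lowest for the red cell, neutrophil and cell cycle lists and highest for the fibroblast and macrophage lists, while the bone list is higher in the 6 loaded than in the 6 non-loaded libraries.

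The balance of higher and lower calls moved clearly only when libraries were scaled by total reads. For loading beside the alloy, material under loading and the interaction, 44.6%, 41.6% and 39.5% of called genes were higher with recomputed size factors. By nuclear reads these were 44.3%, 42.7% and 39.7%. Under both, the metal-handling genes were 8 higher and 5 lower, 5 and 3, and 3 and 2. With libraries scaled by total reads instead of the deposited depth, the median over all genes moved to -0.17 for loading beside the alloy, -0.15 for material under loading and -0.18 for the interaction. The share of called genes that were higher fell from 45.1% to 32.7%, from 43.7% to 27% and from 41.6% to 26.1%, and the metal-handling genes went from 8 higher and 5 lower to 6 and 6, from 6 and 3 to 3 and 6, and from 4 and 2 to 2 and 2. Mt2A, Slc39a14, Atp7b and Slc30a10 kept their direction and their call under that scaling in all 3 comparisons. The 34 genes together took 0.195% to 0.205% of the nuclear reads in loaded Nb3 alloy and 0.132% to 0.168% in the other 9 libraries.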

How the data were processed

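Bone RNA of 12 libraries in 4 groups of 3, grouped by the labels' treatment, was compared. The authors deposited FPKM for each gene beside its length. Tools named by the submitters' processing notes are HISAT2 2.0.5, featureCounts 1.5.0-p3, CASAVA 1.8, DESeq2 1.20.0 and fastp. The build, annotation and strandedness of the counting were not given in the sources used here. FPKM times length came in whole reads for 100% of positive values within 0.01 read.

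For the tests, limma 3.58.1 (R 4.3.3) was fitted to log2(FPKM + 1) of all 12 libraries, a mean for each group, leaving 8 residual degrees of freedom, under trended and robust moderation. The 5 contrasts were each tested with their own adjustment. The procedure was also run on simulated data with far fewer changed genes than were called here. That run does not show how it performs on these data. The members and lists were chosen with earlier results of these data known. Listed symbols that did not stand on exactly 1 row were left out, among them Alas2 of the red cell list and Slc40a1 of the other metal transporters. Named genes are those called in any comparison, the members named singly, and up to 4 called genes per direction of each further list by smallest p. Genes of the copper list at an unadjusted p under 0.05 (limma) with loading beside cpTi are named as well. Alternatives were other scalings (recomputed size factors, total reads, nuclear reads), no filter or 1 FPKM in 6 libraries, a pseudocount of 0.1, a replicate block, non-robust moderation, limma-voom on recovered reads, the compared groups alone, each library left out, and, added after seeing the data, an absolute difference of at least 1. Tables used Python 3.11.15, numpy 2.4.6 and pandas 2.3.3, plots matplotlib 3.10.9. The replicate block added a term for each replicate number to the model. The installed statmod was 1.5.0.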

Additional observations from a re-analysis of the deposited data

Results flagged for a closer look

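In 6 metal-handling genes the effect of loading differed between the materials by the interaction test of limma, which is 22.2% of the 27 tested, against 20.2% of all tested genes. The difference of the loading effects (Nb3 alloy minus cpTi, on log2(FPKM + 1)) was 1.78 for Mt2A, 1.62 for Slc39a14, 0.863 for Slc39a13 and 0.775 for Slc39a1. It was -2.84 for Atp7b and -2.09 for Slc30a10. The call of Slc39a13 (limma, adjusted p = 0.0499) was lost in 16 of 21 alternatives and that of Slc39a1 in 2 (libraries scaled by total reads, and without loaded cpTi replicate 1). All 6 rest on the 3 loaded Nb3-alloy libraries, which correlated less with the other 9 than those did among themselves.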

How the results depend on the processing

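For loading beside the Nb3 alloy, 11 to 13 of the 27 genes were called with 1 library left out and 8 to 14 under the other settings, the 8 being those with an absolute difference of at least 1. For material under loading the ranges were 5 to 9 and 4 to 9, with 5 without loaded cpTi replicate 1 and 4 at an absolute difference of at least 1. For the interaction they were 4 to 7 and 4 to 6. Atp7b, Slc30a10, Mt2A and Slc39a14 kept direction and call under every alternative run in these 3 comparisons, and with a pseudocount of 0.1 the loading differences of Atp7b and Slc30a10 beside the alloy were -5.37 and -7.31. Over all genes, the interaction gave 1986 to 3159 calls with 1 library left out, with 2018 without non-loaded Nb3-alloy replicate 3 and 1986 without loaded cpTi replicate 1. Loading beside cpTi, with 1 gene called, gave 2 without a filter and with 1 FPKM in 6 libraries, 0 with a pseudocount of 0.1, with limma-voom, with a replicate block and with the compared groups alone, and 0 to 4 with 1 library left out (4 without non-loaded cpTi replicate 1, 2 without loaded Nb3-alloy replicate 1, 0 without loaded Nb3-alloy replicate 2 or 3, non-loaded Nb3-alloy replicate 2, loaded cpTi replicate 1 or 2, or non-loaded cpTi replicate 2 or 3). Material without loading, with 0 called, gave 1 without a filter and 0 to 4 with 1 library left out (2 without loaded Nb3-alloy replicate 2, 4 without non-loaded cpTi replicate 1). The 27 genes had 0 calls in both comparisons under each alternative. Differences that were not called and near 0 changed sign: loading beside cpTi for Atp7b to -0.16 without loaded cpTi replicate 1 and -0.12 without non-loaded cpTi replicate 3 (range with 1 library left out -0.16 to 0.21), and material without loading for Slc39a14 to 0.045 without non-loaded Nb3-alloy replicate 2 (range -0.23 to 0.045), Slc39a1 to -0.036 (range -0.036 to 0.099), Slc39a13 to 0.087 (range -0.24 to 0.087) and Atp7b to -0.058 (range -0.058 to 0.22) without non-loaded cpTi replicates 1, 2 and 3. The cause was not tested.

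Libraries of the same number correlated at -0.252 to 0.115 in their deviations from the group means, 1 of 18 pairs over 0.1, and 0 of 12 libraries were closest to their own number. No pairing by number was seen, but deviations from means of 3 libraries are a weak check. The labels do not say what the numbers stand for. With a replicate block the calls among the 27 genes were 12 for loading beside the alloy, 0 for loading beside cpTi, 7 for material under loading, 0 for material without loading and 5 for the interaction. The interaction has no separate fit of the compared groups alone, since it uses all 4 groups. Counts of 0 to 10 reads limit Slc30a10 in loaded Nb3 alloy, and 3 libraries a group limit every test.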

Other observations

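Mt4, a metallothionein of stratified epithelium, was listed at 0 in 9 of the 12 libraries and reached 2.45 FPKM in loaded Nb3-alloy replicate 2 and 3.87 in loaded cpTi replicate 2. Mt1m was listed at 0 in all 12. A row without a symbol on chromosome 11 (ENSRNOG00000067986), described as like the copper chaperone Cox17, had 2.68 to 6.10 FPKM, with a loading difference of -0.08 beside the alloy (limma, adjusted p = 0.812). Among the tested genes other than Slc30a10, Slc39a9, a zinc importer of the Golgi, varied least over the 12 libraries, from 11.9 to 15.9 FPKM or 1.34-fold. Slc30a7 followed at 1.38-fold, while Mt2A varied 6.01-fold, Slc39a14 6.73-fold and Atp7b 100.1-fold.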
